A study of Mus musculus with 93 samples.

Results

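The S100 proteins and the annexins are calcium-binding families that act largely in pairs, and 10 of their genes were followed here across mouse livers of 7 strains on 2 diets. The genes were chosen by symbol: the rows of the count table whose Ensembl identifier maps to S100a4, S100a6, S100a8, S100a9, S100a10, S100a11, Anxa1, Anxa2, Anxa3 or Anxa5, which are 10 of the 53465 genes counted. The 10 symbols were chosen with earlier results of these data known. The data come from 93 male mice of the inbred strains C57BL/6J, DBA/2J, A/J and 129S1/SvImJ, which are long domesticated, and of the wild-derived strains WSB/EiJ, CAST/EiJ and PWK/PhJ. All mice were kept at 30°C from 6 wk of age, which is thermoneutral for a mouse, and from 7 wk of age they ate either a western diet (WD) with 40% of its calories from fat or a control diet (CD) with 10%. Livers perfused with saline were taken when the diets had been fed for 17 wk, at an age of 24 wk, and their RNA was sequenced. Each of the 14 groups held 5 to 8 mice.

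S100 proteins are small EF-hand proteins, most of which change shape when they bind calcium. S100A8 and S100A9 form calprotectin, which is stored in neutrophils and monocytes, whereas S100A10 holds annexin A2 in a tetramer that binds tissue plasminogen activator and plasminogen at the cell surface. Annexins bind acidic phospholipids of membranes in the presence of calcium: annexin A5 binds phosphatidylserine, annexin A1 is a ligand of formyl peptide receptors that limits inflammation, and S100A11 is the usual partner of annexin A1. S100A4 and S100A6 are associated with fibroblasts and motile cells. In the liver most of these genes are known from cells other than resting hepatocytes, such as macrophages, stellate cells and bile duct cells.

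The 6 S100 genes lie on chromosome 3 of GRCm38 in 2 stretches, the first from S100a4 (90603771) over S100a6 and S100a8 to S100a9 (which ends at 90695721), the second with S100a11 (93520488 to 93526287) and S100a10 (93555080 to 93564643). Anxa5 is on chromosome 3 (36448923 to 36475894), Anxa2 on chromosome 9 (69453620 to 69491795), Anxa3 on chromosome 5 (96793339 to 96845966) and Anxa1 on chromosome 19 (20373428 to 20390944). S100a4 shares 302 of its 584 exon bases with a predicted gene on its own strand, Gm42674, and Anxa3 shares 112 exon bases with Gm42603 in the same way. Anxa2 shares 98 exon bases with Gm16144 on the opposite strand. Reads in these shared stretches may have been left out or assigned to the neighbour.

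Stretches upstream of S100a11 and Anxa2 are shown because both genes rose in the same 4 strains and because they were the only ones of the 8 genes with a RefSeq promoter entry to hold the AP-1 motif TGANTCA. The motif, in capitals, is its own reverse complement, so both strands were searched at once. The sequences are the plus strand of GRCm38.p6, 5′ to 3′, from 150 bases before the RefSeq start of the gene up to the first base of an annotated exon: chr3:93520346-93520487 for S100a11 and chr9:69453533-69453619 for Anxa2.
S100a11: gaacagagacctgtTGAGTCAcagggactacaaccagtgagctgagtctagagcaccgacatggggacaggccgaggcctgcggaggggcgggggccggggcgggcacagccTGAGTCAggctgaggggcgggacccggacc
Anxa2: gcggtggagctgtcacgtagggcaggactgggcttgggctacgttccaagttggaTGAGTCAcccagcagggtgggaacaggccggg

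The matches begin at bases -136 and -38 before the start of S100a11 and at base -95 before that of Anxa2. Of 32851 RefSeq promoters of the same 300-base length, 7.81% held TGANTCA. The PU.1 motif GAGGAAG, searched on both strands, was in 2 of the 8 promoters (S100a4 and S100a8) and in 13.6% of all, and TATAAA, also on both strands, was in 5 of the 8 (S100a4, S100a8, S100a9, Anxa1 and Anxa2) and in 13.6% of all. TTGCNNCAA, a C/EBP motif, was in 0 of the 8 and in 2.08% of all on either strand. No matches overlapped in these 8 promoters. A match describes the letters only, and no measurement of binding was made. S100a10 and Anxa3 had no entry.

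The libraries held 40020424 to 49894856 reads on genes per mouse (median 46618609). Levels are given as CPM, the reads of a gene relative to the size of the library, after TMM scaling, and levels of different genes are compared only after division by exon length. That length counts every annotated exon base of a gene, 3731 for Anxa2 and 1212 for S100a10. Which transcripts were present was not tested, so comparisons of level between genes are rough. Per kilobase of exon, the median over the 93 mice was highest for S100a10 (50.5 CPM per kb) and Anxa5 (30.6), followed by S100a11 (9.59), Anxa2 (3.64), S100a9 (2.03), Anxa1 (1.35), S100a6 (0.972), Anxa3 (0.861) and S100a8 (0.772). S100a4 was listed with 0 to 6 reads per mouse, failed the filter on low counts and was not tested, so the counts below are over the other 9 genes. The hepatocyte marker list (Alb, Apoa1, Ttr, Cps1, Serpina1c and Fgb) summed to at least 68769 CPM in every mouse, as liver would give, and 1 to 4 of these 6 genes fell on WD in each strain. All reads were mapped to the C57BL/6J genome, and the median share of unmapped reads ran from 2.20% in A/J to 12.5% in CAST/EiJ. For levels between strains, expression and mapping thus cannot be told apart. The diet comparison within a strain uses mice of the same sequence, but the unmapped share could still differ between diets. In PWK/PhJ it was 2.22 to 4.23% on CD and 5.48 to 8.73% on WD, without overlap. In DBA/2J it ran from 5.42 to 7.07% on CD and from 4.01 to 5.67% on WD. The part of this in the diet effects was not tested.

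WD raised at least 1 of the 9 genes in every strain, and lowered none of them in any. When genes of any count were tested, 0 of them rose in A/J, WSB/EiJ and CAST/EiJ, where Anxa5 of A/J had an adjusted p of 0.160, S100a10 and Anxa5 of WSB/EiJ had 0.0700 and 0.545, and S100a10 of CAST/EiJ had 0.129. The widest response was in 129S1/SvImJ, where all 9 rose. All 9 also rose in C57BL/6J with sample quality weights or without replicate 2 on CD. That mouse was the highest of its group for 8 of the 9 genes, so leaving it out was bound to raise their differences. With edgeR, DESeq2 or a separate fit, 4 rose in C57BL/6J. C57BL/6J and PWK/PhJ each had 7 genes that rose, DBA/2J had 4 (S100a10, S100a11, Anxa2 and Anxa5), WSB/EiJ had 2 (S100a10 and Anxa5), and A/J (Anxa5) and CAST/EiJ (S100a10) had 1 each. Whole liver was sequenced, so more cells of a type and more RNA per cell cannot be told apart. Over all 19110 genes tested, 14.5% rose for 129S1/SvImJ, 14.3% for C57BL/6J, 15.1% for PWK/PhJ, 10.2% for DBA/2J, 4.97% for WSB/EiJ, 4.39% for A/J and 9.77% for CAST/EiJ. Those that fell made up 13.6% for 129S1/SvImJ, 11.9% for C57BL/6J, 14.5% for PWK/PhJ, 7.77% for DBA/2J, 3.97% for WSB/EiJ, 4.64% for A/J and 9.73% for CAST/EiJ. The 1 gene of 9 that rose in CAST/EiJ, and likewise in A/J, is thus within a gene of what those shares would give. None of the 9 fell at an unadjusted p under 0.05 either, and edgeR and DESeq2 also called 0 lower in each strain. The median log2 fold change of the 9 genes ran down from 1.56 (PWK/PhJ) over 1.35 (129S1/SvImJ), 0.74 (C57BL/6J), 0.61 (A/J), 0.49 (WSB/EiJ) and 0.31 (CAST/EiJ) to 0.05 (DBA/2J), where the median of all genes was between -0.01 and 0.02 in each strain.

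**Figure D1:**
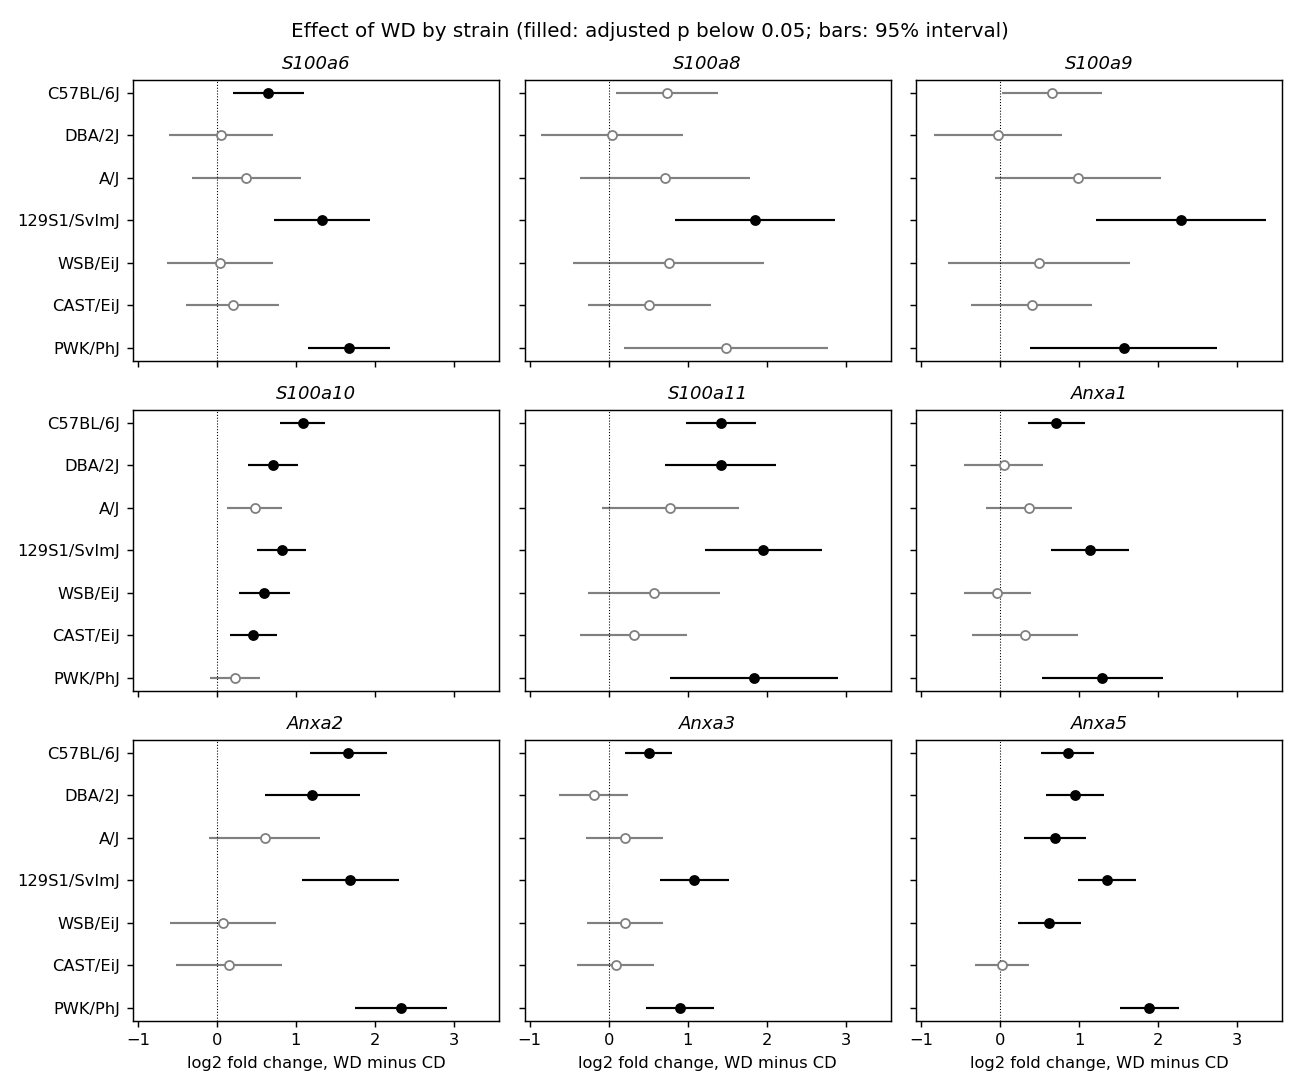
Log2 fold change of WD against CD for 9 genes (panels) in 7 strains (rows). Points are limma-voom estimates with 95% intervals, filled where the adjusted p is below 0.05. The 129S1/SvImJ row is filled in all 9 panels, and the PWK/PhJ row has the largest estimates for Anxa2 (2.33) and Anxa5 (1.89) but not for S100a10 (0.23).

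The number of strains in which a gene rose was 6 for Anxa5 (all but CAST/EiJ), 5 for S100a10 (all but A/J and PWK/PhJ), 4 for S100a11 and Anxa2 (C57BL/6J, DBA/2J, 129S1/SvImJ and PWK/PhJ), 3 for S100a6, Anxa1 and Anxa3 (C57BL/6J, 129S1/SvImJ and PWK/PhJ), 2 for S100a9 (129S1/SvImJ and PWK/PhJ) and 1 for S100a8 (129S1/SvImJ). A test of whether the WD effect is the same in all 7 strains rejected this for 8 of the 9 genes, against 37.5% of all genes tested. The exception was S100a8 (adjusted p = 0.185). On CD, levels differed between strains for 8 of the 9 genes, but so did those of 93.7% of all genes. S100a6 was the exception (adjusted p = 0.0536).

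The labels assign each mouse to a cohort, and every cohort of a strain held both diets. In the 15 combinations of strain and cohort, the mean log2 CPM was higher on WD in 15 for S100a10 and S100a11, in 14 for S100a6, Anxa2 and Anxa5, in 13 for S100a9 and Anxa1, in 12 for S100a8 and in 10 for Anxa3. One CAST/EiJ cohort had only 1 mouse on CD.

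Anxa5 was the gene called in the most strains. In PWK/PhJ its level ran from 36.7 to 72.7 CPM on CD with a median of 49.1, and from 104.2 to 273.2 CPM on WD with a median of 200.3. The lowest WD mouse was above the highest CD mouse. The fold change was 3.70 (log2 1.89 ± 0.19 SE, adjusted p = 1.37e-13, n = 6 and 7).

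In 129S1/SvImJ Anxa5 went from 24.8 to 28.4 CPM on CD (median 25.5) to 53.4 to 77.2 CPM on WD (median 66.6), again without overlap. The fold change was 2.56 (log2 1.35 ± 0.19 SE, adjusted p = 2.58e-08, n = 7 and 6). DBA/2J and A/J also showed no overlap: the median rose from 51.8 to 96.3 CPM in DBA/2J (fold change 1.93) and from 57.7 to 89.6 CPM in A/J (fold change 1.61). In WSB/EiJ, the strain with the lowest levels, the median was 19.5 CPM on CD and 32.4 CPM on WD, and 5 of the 6 WD mice were above all CD mice (fold change 1.54, adjusted p = 0.0373). That call was lost in 7 of the 12 fits that left out 1 mouse, with adjusted p up to 0.122.

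C57BL/6J had the highest Anxa5 levels on both diets. Its CD mice ran from 73.4 to 239.3 CPM around a median of 96.1, and its WD mice from 102.6 to 308.9 CPM around a median of 231.6. The groups overlapped, with 3 of the 8 WD mice above every CD mouse (fold change 1.81, adjusted p = 5.30e-05). In CAST/EiJ the medians were 40.6 CPM on CD and 43.1 CPM on WD, and the log2 difference of 0.03 had a 95% interval from -0.32 to 0.37. Set against the mean effect of the other 6 strains, the WD effect on Anxa5 was smaller in CAST/EiJ by 1.03 on the log2 scale (adjusted p = 5.04e-05) and larger in PWK/PhJ by 1.14 (adjusted p = 2.10e-05). Such a departure in either direction was called for 14.5% of all genes in CAST/EiJ and for 16.3% in PWK/PhJ.

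**Figure D2:**
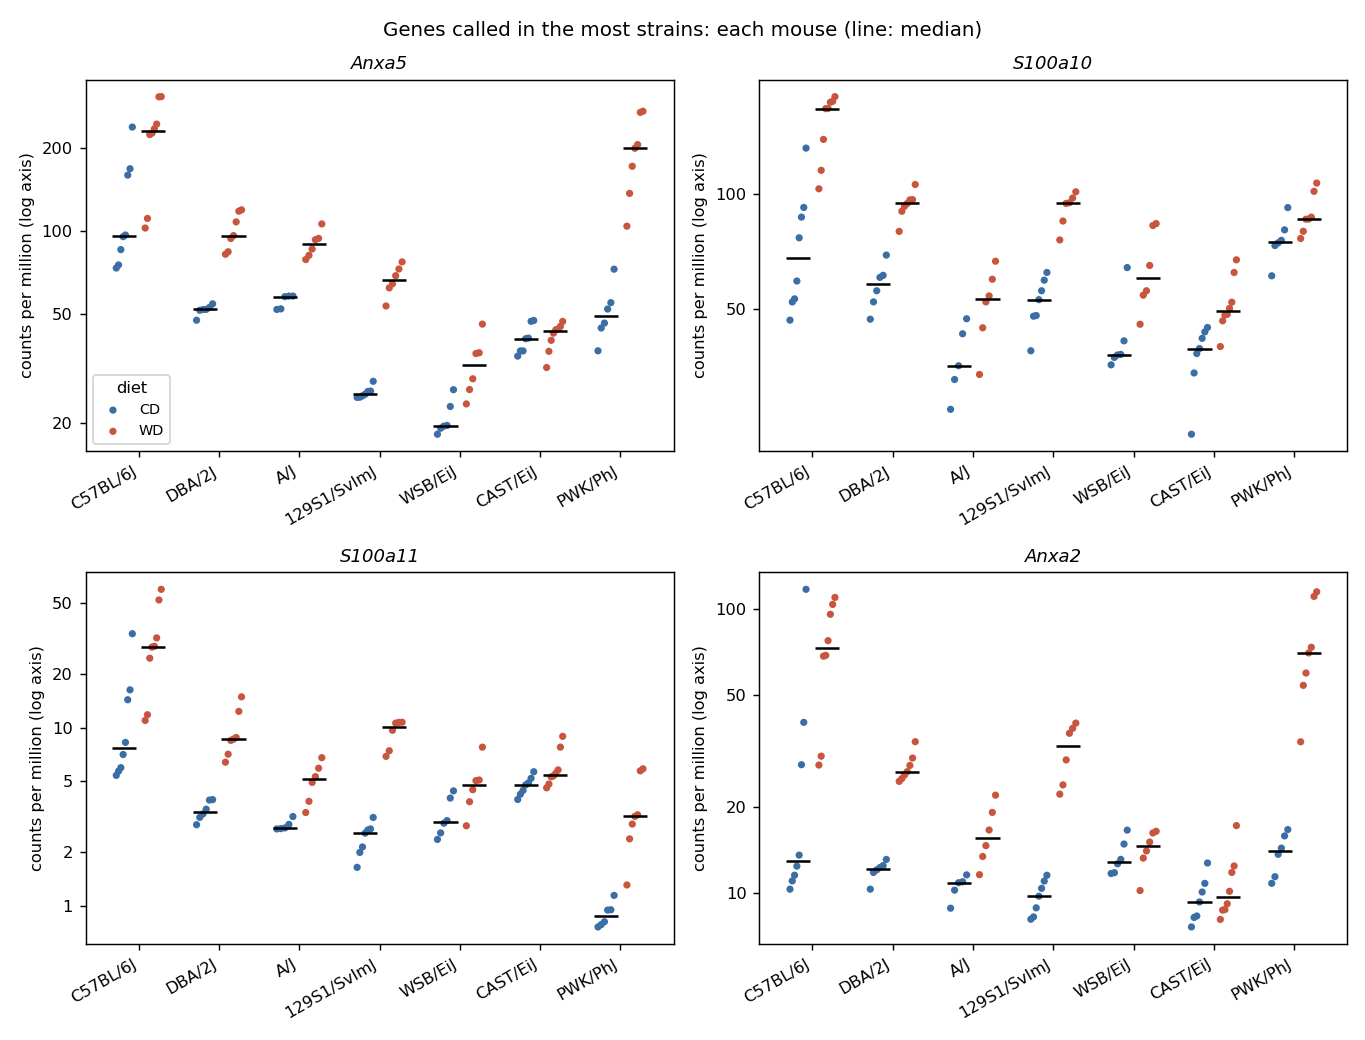
Level in each mouse (points, CPM on a log axis) by strain and diet for the 4 genes called in the most strains, with lines at the group medians. Anxa5 of CAST/EiJ shows medians of 40.6 and 43.1 CPM, whereas the 2 diets of PWK/PhJ do not overlap for Anxa5, S100a11 and Anxa2.

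Anxa2 encodes the membrane-binding subunit of the tetramer, and its fold change in PWK/PhJ was the largest of the 9 genes in any strain. The 6 PWK/PhJ mice on CD had 10.8, 11.4, 13.7, 14.4, 15.9 and 16.7 CPM. The 7 on WD had 34.1, 53.9, 59.6, 70.2, 73.5, 111.1 and 115.3 CPM. Every WD mouse was thus above every CD mouse, and the fold change was 5.03 (log2 2.33 ± 0.29 SE, adjusted p = 6.79e-10).

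In 129S1/SvImJ Anxa2 ran from 8.06 to 11.5 CPM on CD (median 9.72) and from 22.3 to 39.7 CPM on WD (median 33.0), with no overlap (fold change 3.22, adjusted p = 1.43e-05). In DBA/2J it ran from 10.3 to 13.1 CPM on CD (median 12.2) and from 24.7 to 34.1 CPM on WD (median 26.7), also without overlap (fold change 2.31, adjusted p = 0.00231). The A/J groups did not overlap either, with medians of 10.8 and 15.7 CPM, but the change did not pass the test (log2 0.61 ± 0.35 SE, adjusted p = 0.305). A fit to A/J alone gave an adjusted p of 0.0181, the only 1 of 9 alternatives that called it. Of the 11 fits that left out 1 mouse, 0 called it. WSB/EiJ (log2 0.08, 95% interval -0.60 to 0.75) and CAST/EiJ (log2 0.15, 95% interval -0.52 to 0.82) did not pass.

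The C57BL/6J mice on CD had between 10.3 and 13.6 CPM of Anxa2 in 5 cases and 28.3, 39.9 and 117.7 CPM in the others. The WD mice ran from 28.2 to 110.2 CPM with a median of 73.2. The groups therefore overlapped, 1 CD mouse (replicate 2) lying above all 8 WD mice (fold change 3.17, adjusted p = 1.42e-07). Without that mouse the log2 fold change was 2.04 in place of 1.67. Against the other 6 strains, the WD effect on Anxa2 was larger in PWK/PhJ by 1.43 on the log2 scale (adjusted p = 0.000771) and smaller in CAST/EiJ by 1.11 (adjusted p = 0.0246). The CAST/EiJ departure did not pass when genes of any count were tested (adjusted p = 0.123).

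S100a10, the other subunit of the tetramer, passed the test in 5 strains, where Anxa2 passed in 4. Its log2 fold change was below that of Anxa2 in C57BL/6J, DBA/2J, A/J, 129S1/SvImJ and PWK/PhJ and above it in WSB/EiJ (0.60 and 0.08) and CAST/EiJ (0.46 and 0.15). In C57BL/6J it ran from 46.8 to 131.8 CPM on CD (median 68.0) and from 103.1 to 179.7 CPM on WD (median 167.3), and 6 of the 8 WD mice were above all CD mice (fold change 2.12, log2 1.08 ± 0.14 SE, adjusted p = 8.40e-09). In 129S1/SvImJ the median went from 52.9 to 94.7 CPM and in DBA/2J from 58.1 to 94.4 CPM, in both cases with no overlap (fold changes 1.76 and 1.63). In WSB/EiJ the median went from 38.0 to 60.4 CPM with overlap (fold change 1.52, adjusted p = 0.00993).

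In CAST/EiJ the 7 mice on CD had 23.5 to 44.7 CPM of S100a10 (median 39.4) and the 8 on WD had 39.9 to 67.2 CPM (median 49.3). The fold change was 1.38 (adjusted p = 0.0187), and 7 of the 8 WD mice were above every CD mouse. The call was lost without CD replicate 5 (adjusted p = 0.112) or WD replicate 4 (adjusted p = 0.0508). In A/J the medians were 35.5 and 53.1 CPM (log2 0.48 ± 0.17 SE, adjusted p = 0.0679).

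PWK/PhJ differed for S100a10. On CD it had the highest median of the 7 strains (75.1 CPM, range 61.1 to 92.1), and on WD the median was 86.0 CPM (range 76.5 to 106.8). The log2 difference of 0.23 had a 95% interval from -0.09 to 0.54. Against the other 6 strains the WD effect in PWK/PhJ was smaller by 0.46 on the log2 scale (adjusted p = 0.0497), a call lost under 6 of the 8 alternatives, with adjusted p up to 0.0721. That in C57BL/6J was larger by 0.54 (adjusted p = 0.0314), a call lost with edgeR (0.0554) and upper-quartile scaling (0.0503). In C57BL/6J, 4.69% of all genes departed in either direction.

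Since both genes encode subunits of one complex, the ratio of Anxa2 to S100a10, each per kilobase of exon, was taken in every mouse. This ratio does not depend on the scaling of the library, and it was chosen after the values above were seen. In PWK/PhJ the ratio ran from 0.0435 to 0.0682 on CD (median 0.0601) and from 0.139 to 0.415 on WD (median 0.265). The mean log2 ratio was higher on WD by 2.11 (two-sided exact permutation test, p = 0.00117, the smallest that this design allows, adjusted p = 0.00272 over the 7 strains).

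The ratio was also higher on WD in 129S1/SvImJ, by 0.87 on the log2 scale, and in DBA/2J, by 0.50 (both adjusted p = 0.00272, exact permutation tests). In WSB/EiJ the opposite held: its median was 0.103 on CD and 0.0709 on WD, a difference of -0.53 (adjusted p = 0.0417, exact permutation test), and this call was lost in 10 of the 12 tests that left out 1 mouse. The other strains did not pass, with adjusted p of 0.233 for C57BL/6J, 0.437 for A/J and 0.113 for CAST/EiJ by the same test. Without replicate 2 of C57BL/6J on CD the difference in that strain was 0.95 (adjusted p = 0.0190), and without replicate 3 of CAST/EiJ on WD it was -0.43 in that strain (adjusted p = 0.00510).

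**Figure D3:**
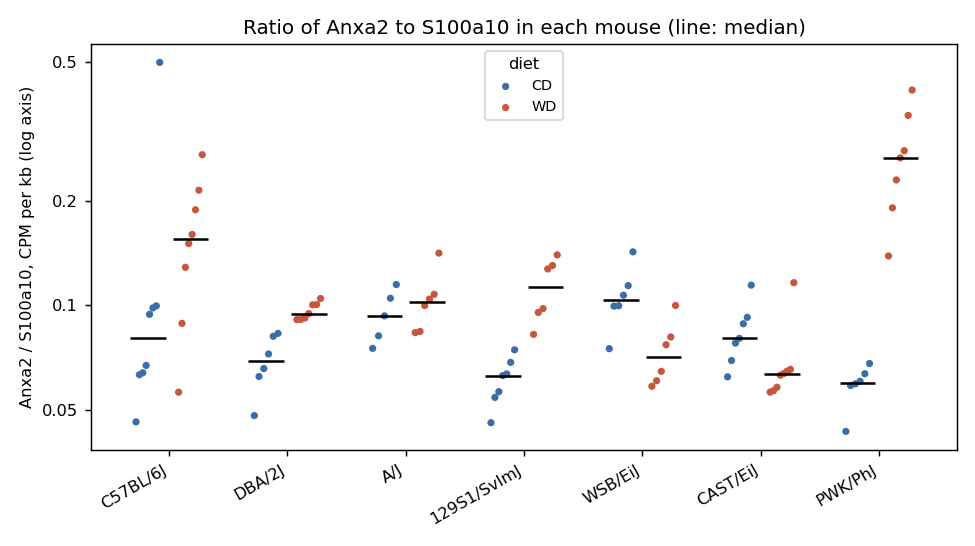
Ratio of Anxa2 to S100a10 (CPM per kilobase of exon, log axis) in each mouse by strain and diet, with lines at the medians. The PWK/PhJ mice on WD lie between 0.139 and 0.415, above every CD mouse of the strain, and the WSB/EiJ median is lower on WD (0.0709) than on CD (0.103).

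S100a11 rose in the same 4 strains as Anxa2. In C57BL/6J it ran from 5.40 to 33.7 CPM on CD (median 7.67) and up to 59.9 CPM on WD (median 28.5), where the lowest mouse was below the highest CD mouse (fold change 2.68, adjusted p = 4.93e-07). In 129S1/SvImJ it ran from 1.64 to 3.13 CPM on CD (median 2.56) and from 6.90 to 10.7 CPM on WD (median 10.1), with none (fold change 3.88, adjusted p = 2.84e-05). The groups did not overlap in DBA/2J (medians 3.38 and 8.63 CPM, fold change 2.67) or in PWK/PhJ (medians 0.880 and 3.18 CPM, fold change 3.57). In A/J the 6 WD mice were also all above the 5 CD mice, from 3.34 to 6.79 CPM against at most 3.17 CPM. The change did not pass (log2 0.78 ± 0.43 SE, adjusted p = 0.277), whereas a fit to A/J alone called it (adjusted p = 0.0119). That fit was the only 1 of 9 alternatives to call it, and 0 of the 11 fits that left out 1 mouse did. PWK/PhJ had the lowest S100a11 levels on both diets, its highest CD mouse (1.14 CPM) being below the lowest CD mouse of 129S1/SvImJ, the next strain in order.

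Anxa1 rose by a fold of 2.45 in PWK/PhJ (adjusted p = 0.00684), 2.20 for 129S1/SvImJ (adjusted p = 0.000228) and 1.63 for C57BL/6J (adjusted p = 0.00185). All WD mice were above all CD mice in PWK/PhJ and 129S1/SvImJ. On CD the median ran from 0.737 CPM in PWK/PhJ to 7.59 CPM in WSB/EiJ, a ratio of 10.3. In that order the CD ranges of neighbouring strains overlapped except between CAST/EiJ and 129S1/SvImJ and between DBA/2J and WSB/EiJ. WSB/EiJ, high on CD, had a log2 difference of -0.04 on WD with a 95% interval from -0.46 to 0.39.

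Anxa3 rose by a fold of 2.12 for 129S1/SvImJ (adjusted p = 8.52e-05), 1.87 for PWK/PhJ (adjusted p = 0.000648) and 1.42 for C57BL/6J (adjusted p = 0.00651). In the other strains its log2 difference lay between -0.19 in DBA/2J and 0.20. The effect in 129S1/SvImJ exceeded that of the other 6 strains by 0.80 on the log2 scale (adjusted p = 0.0292), where 6.28% of all genes departed in either direction.

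S100a6, a gene of fibroblasts and epithelia, rose by a fold of 3.18 in PWK/PhJ (adjusted p = 2.66e-07), where the median went from 1.38 to 4.07 CPM without overlap. It rose by a fold of 2.52 for 129S1/SvImJ (adjusted p = 0.000426) and 1.57 for C57BL/6J (adjusted p = 0.0232). The effect in PWK/PhJ exceeded that of the other 6 strains by 1.23 on the log2 scale (adjusted p = 0.00142).

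The C57BL/6J calls for S100a6, Anxa1 and Anxa3 were the least firm of that strain. They were lost with edgeR (adjusted p of 0.157, 0.115 and 0.0964), with DESeq2 (0.144, 0.105 and 0.0877) and in a fit to C57BL/6J alone (0.138, 0.142 and 0.219), and with cohort as a term those of S100a6 and Anxa3 were lost (0.0885 and 0.0719). The S100a6 call was also lost without CD replicate 1, 3 or 5 or WD replicate 3, with adjusted p up to 0.0860. Replicate 2 of C57BL/6J on CD had the highest level of its group for 8 of the 9 genes, S100a10 being the exception. The same mouse had 437.3 CPM summed over cholangiocyte markers, where the other CD mice of the strain had at most 199.0. These markers were Krt19, Krt7, Epcam, Sox9, Cftr and Spp1, and high sums are mainly Spp1. That mouse also had 958.2 CPM summed over stellate cell and fibroblast markers, where the others had at most 498.8. Its monocyte and macrophage sum was 594.3 CPM, where the others had at most 404.9, and its neutrophil and mesothelial sums were also the highest of the group. It was the lowest of the group in Kupffer cell (152.8 CPM), sinusoidal endothelial (181.8 CPM) and erythroid markers (47.1 CPM). Without it the log2 fold changes were 0.92 for S100a6, 1.01 for Anxa1 and 0.76 for Anxa3, in place of 0.65, 0.71 and 0.51. The C57BL/6J calls for Anxa2, S100a11 and Anxa5 stayed under each alternative fit, with adjusted p up to 0.0249, 0.0307 and 0.0499.

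S100a8 and S100a9 were low in all groups. In 129S1/SvImJ the 7 CD mice had 0.234, 0.248, 0.273, 0.316, 0.336, 0.369 and 0.390 CPM of S100a9, from 11 to 18 reads each. The 6 WD mice had 1.02, 1.22, 1.46, 1.48, 1.77 and 2.64 CPM, from 49 to 131 reads. Every WD mouse was above every CD mouse (fold change 4.88, log2 2.29 ± 0.54 SE, adjusted p = 0.000662). S100a8 behaved alike in this strain, with medians of 0.232 and 0.806 CPM and no overlap (fold change 3.60, adjusted p = 0.00366).

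In PWK/PhJ S100a9 went from 0.146 to 0.424 CPM on CD to 0.547 to 1.28 CPM on WD without overlap (fold change 2.95, adjusted p = 0.0381), though the call was lost in 7 of the 13 fits that left out 1 mouse, with adjusted p up to 0.0866. S100a8 of PWK/PhJ had a fold change of 2.80 and did not pass (adjusted p = 0.0755), whereas edgeR (0.0483) and DESeq2 (0.0202) called it, as did limma-voom without WD replicate 7 (0.0462). In all, 5 of the 8 alternatives called it. The fit without WD replicate 7 was the only 1 of 13 that left out 1 mouse to do so, with adjusted p up to 0.174. C57BL/6J had the highest medians of S100a9 on both diets, 1.41 CPM on CD and 2.50 CPM on WD, with overlap (fold change 1.58, adjusted p = 0.119). Without replicate 2 on CD the adjusted p there was 0.0470 for S100a9 and 0.0305 for S100a8. This was the only 1 of the 16 fits leaving out a C57BL/6J mouse that called either gene.

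In A/J a single mouse carried most of the difference. WD replicate 3 had 8.92 CPM of S100a9 and 5.64 CPM of S100a8, where the medians of the group were 1.06 and 0.450 CPM. Its summed neutrophil markers were 28.1 CPM against at most 5.78 in the other A/J mice on WD. It was also the highest of the group in summed monocyte and macrophage markers (779.9 CPM against at most 452.3) and Kupffer cell markers (428.1 CPM against at most 287.8). With it, edgeR called both genes higher in A/J (log2 1.77 for each, adjusted p of 0.0266 for S100a8 and 0.0185 for S100a9), while limma-voom did not (adjusted p of 0.462 and 0.258). Without it, limma-voom gave log2 differences of 0.07 and 0.41.

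**Figure D4:**
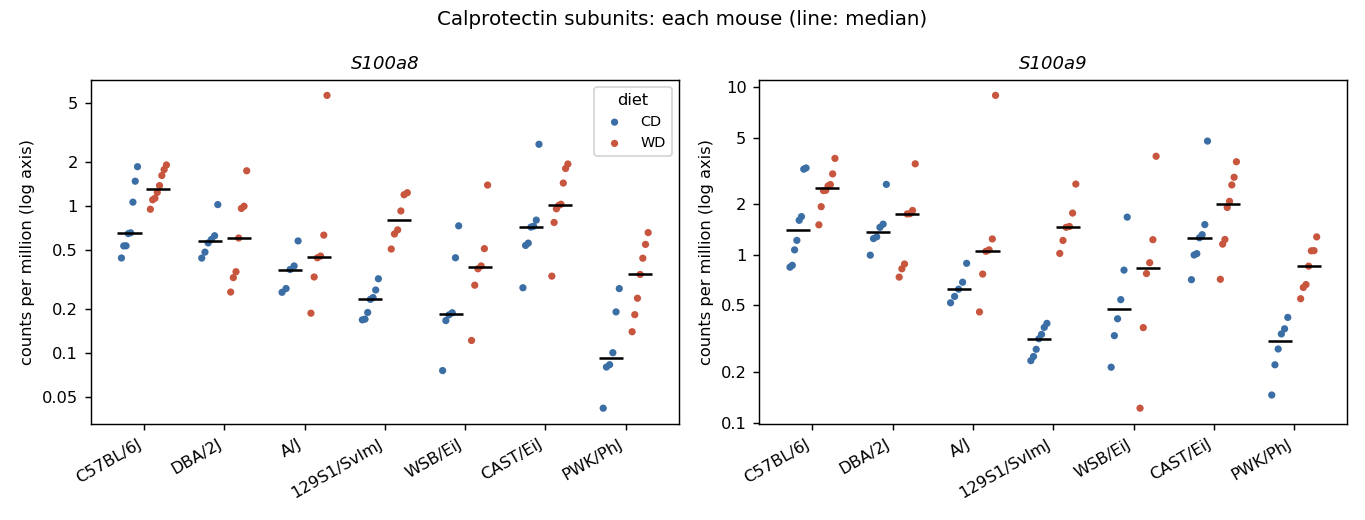
Level of S100a8 and S100a9 in each mouse (points, CPM on a log axis) by strain and diet, with lines at the medians. The diets do not overlap in 129S1/SvImJ for either gene, and 1 A/J mouse on WD stands at 5.64 CPM of S100a8 and 8.92 CPM of S100a9.

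Markers of some other cell types, though not of all, were higher on WD in several of the same strains. Of the 10 monocyte and macrophage markers, all 10 rose on WD for 129S1/SvImJ, 9 each for C57BL/6J and PWK/PhJ, against 0 for DBA/2J, 1 for A/J, 2 for CAST/EiJ and 4 for WSB/EiJ. Their sum ran in PWK/PhJ from 154.2 to 316.8 CPM on CD and from 455.6 to 630.2 CPM on WD. In 129S1/SvImJ it ran from 129.7 to 254.6 CPM on CD and from 327.3 to 479.5 CPM on WD. In C57BL/6J it ran from 210.3 to 594.3 CPM on CD and from 460.5 to 844.4 CPM on WD.

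Of the 11 neutrophil markers tested, 7 rose for 129S1/SvImJ, 5 for PWK/PhJ and 4 each for C57BL/6J and DBA/2J. Their sum ran in 129S1/SvImJ from 2.85 to 5.47 CPM on CD and from 7.58 to 29.2 CPM on WD. The 29.2 CPM was 1 mouse, WD replicate 2, and the others had at most 13.5 CPM. S100a8 and S100a9 were highest in WD replicate 4 instead. Over the 93 mice, Csf3r had a median of 3.57 CPM and each other neutrophil marker at most 0.265 CPM, while Ltf reached 17.8 CPM in 1 mouse. The sums are thus mainly Csf3r in most mice. Among the defining neutrophil genes, Ly6g was at 0 in 47 of the 93 mice and Mpo at 0 in 31. Stellate cell and fibroblast markers rose for 5 of 8 genes in PWK/PhJ, where the sum ran from 141.0 to 223.1 CPM on CD and from 313.2 to 694.9 CPM on WD, and for 4 of 8 in C57BL/6J and in 129S1/SvImJ. Cholangiocyte markers rose for 5 of 6 genes in PWK/PhJ, with a sum from 64.6 to 140.4 CPM on CD and from 159.0 to 528.2 CPM on WD, and for 1 of 6 in C57BL/6J and in 129S1/SvImJ. The highest value in any mouse was 501.3 CPM for Spp1 and at most 26.8 CPM for each of the others, so high sums are mainly Spp1. In DBA/2J, where Anxa2, S100a11, S100a10 and Anxa5 rose, 0 of the 8 stellate cell markers and 0 of the 10 macrophage markers rose. Kupffer cell markers rose for 2 of 5 genes in 129S1/SvImJ and for 1 of 5 in C57BL/6J, PWK/PhJ and CAST/EiJ each. Of 5 sinusoidal endothelial markers, 2 rose and 2 fell in C57BL/6J, 2 rose and 1 fell in 129S1/SvImJ, and 1 rose and 1 fell in PWK/PhJ. Of 4 mesothelial markers, 1 rose in 129S1/SvImJ and 1 in PWK/PhJ. The part of all these cells in the changes of the S100 and annexin genes was not tested.

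Partner genes were compared across mice after the mean of each strain and diet group was removed, so that neither strain nor diet could set the relation. S100a8 and S100a9 varied together (Pearson r = 0.87, Spearman rho = 0.81, n = 93). The values were r = 0.63 and rho = 0.53 for S100a11 and Anxa1, and r = 0.44 and rho = 0.51 for S100a10 and Anxa2. No other pairs of genes were tested as a background for these values. The permutation p for r was 1e-05, the smallest that 100000 permutations within groups can give, for the first 2 pairs and 0.00148 for S100a10 and Anxa2 (two-sided, adjusted p over the 3 pairs of 2e-05, 2e-05 and 0.00148). For rho the p was 1e-05 for each of the 3 pairs, also after adjustment. Leaving out the 2 mice farthest from the median of the first gene gave r = 0.85, 0.61 and 0.48. This kept replicate 2 of C57BL/6J on CD, which is extreme in Anxa2 and not in S100a10, so the relations were also computed without that mouse, a choice made after seeing the data, and r was then 0.87, 0.53 and 0.51. With the means of cohorts removed as well, r was 0.87, 0.68 and 0.50. Within the 13 groups of 6 or more mice, r ran from 0.31 to 0.99 for S100a8 and S100a9, from -0.29 to 0.97 for S100a11 and Anxa1, and from -0.70 to 0.87 for S100a10 and Anxa2.

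**Figure D5:**
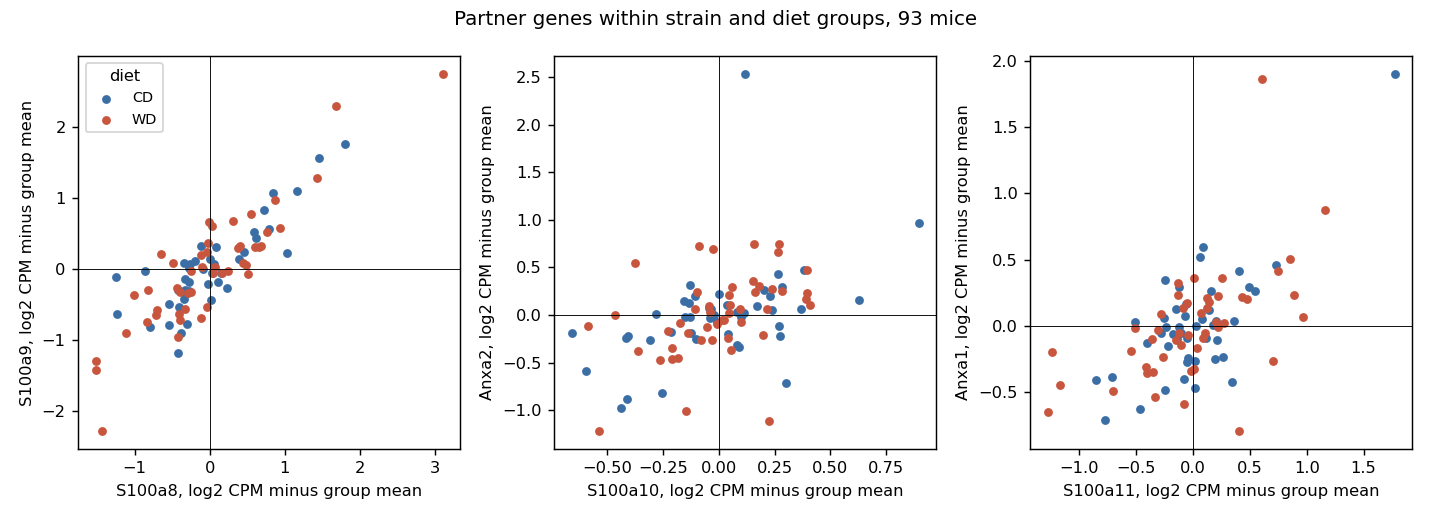
Deviation of each mouse from the mean log2 CPM of its strain and diet group for 3 pairs of partner genes, 93 mice, coloured by diet. The S100a8 and S100a9 points follow a line (r = 0.87), and those of S100a10 and Anxa2 scatter more widely (r = 0.44), with 1 CD mouse far above the others in Anxa2.

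The genes whose log2 CPM ran most like each member over the 93 mice were as follows, as a description in which strain and diet take part. They were sought among 11128 genes of sufficient level. The members, the other S100 genes and annexins, and the receptors and binding partners were left out of this search. Anxa2 was nearest to the fibrillar collagens Col3a1 (r = 0.91) and Col1a1 (r = 0.89), which stellate cells and fibroblasts produce. S100a6 was nearest to Crip1 (r = 0.85) and Col1a1 (r = 0.84). Anxa3 was nearest to Nid1, a basement membrane gene (r = 0.93), and Pea15a (r = 0.91), and Anxa5 to Ehd4 (r = 0.93) and Rap2b (r = 0.88). S100a10 was nearest to Krt8, a keratin of liver epithelia (r = 0.82), and Rexo2 (r = 0.82). Anxa1 was nearest to the chemokine gene Ccl6 (r = 0.87) and Gdf10 (r = 0.85), and S100a11 to Endod1 (r = 0.86) and Cd300c2 (r = 0.83). S100a8 was nearest to AB124611 (r = 0.75) and Slc13a3 (r = 0.74), and S100a9 to AB124611 (r = 0.74) and Slc11a1, a metal transporter of phagocytes (r = 0.72). After the means of strain and diet were removed, r was 0.80 for Anxa2 with Col3a1, 0.80 for Anxa3 with Nid1 and 0.32 for S100a10 with Rexo2. It was 0.62 for S100a10 with Krt8 and 0.67 for S100a11 with Endod1. Their partner genes Anxa2 and Anxa1 gave 0.44 and 0.63. Krt8 and Endod1 were picked as nearest among 11128 genes in these same mice, whereas the partners were fixed beforehand. Which of them runs closer thus cannot be read from these values. For S100a8, r was 0.56 with AB124611, below the 0.87 with S100a9. S100a4 had too few reads for such a comparison.

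Of the 6 other S100 genes tested, between 0 and 1 rose and between 0 and 1 fell in any strain. Over all genes tested, the share that rose ran from 4.39% in A/J to 15.1% in PWK/PhJ. The share that fell ran from 3.97% in WSB/EiJ to 14.5% in PWK/PhJ. Counts of 0 or 1 are thus near what these shares would give. Of the 7 other annexins tested, 3 rose in A/J and 3 in PWK/PhJ, 1 rose in C57BL/6J, DBA/2J, 129S1/SvImJ and WSB/EiJ each, and 0 in CAST/EiJ, with 1 that fell, in WSB/EiJ. Anxa7, whose product takes part in membrane fusion, rose in 4 strains, by a fold of 1.35 in DBA/2J (adjusted p = 3.89e-05), 1.26 for A/J, 1.25 for 129S1/SvImJ and 1.19 for C57BL/6J.

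Of the 12 receptors and binding partners tested, 8 rose for 129S1/SvImJ, 7 for C57BL/6J and 6 for PWK/PhJ, against 2 for CAST/EiJ, 1 each for DBA/2J and WSB/EiJ and 0 for A/J. DBA/2J and PWK/PhJ each had 1 that fell. Over all genes tested, 14.5% rose for 129S1/SvImJ, 14.3% for C57BL/6J, 15.1% for PWK/PhJ and 9.77% for CAST/EiJ. The shares were 10.2% for DBA/2J, 4.97% for WSB/EiJ and 4.39% for A/J. The counts in the last 4 of these strains are thus near those shares. Tlr4, a receptor of calprotectin, rose by a fold of 2.18 for PWK/PhJ, 1.59 for C57BL/6J and 1.48 for 129S1/SvImJ. Plat, which encodes tissue plasminogen activator, rose by a fold of 5.17 in PWK/PhJ (mean 0.429 CPM on CD and 2.39 CPM on WD, adjusted p = 4.11e-05), 3.09 for 129S1/SvImJ and 2.61 for C57BL/6J.

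Plaur, the urokinase receptor, rose in the same 3 strains by folds of 2.06 (PWK/PhJ), 3.11 (129S1/SvImJ) and 2.60 (C57BL/6J). Ahnak, a large scaffold protein bound by the tetramer of S100A10 and annexin A2, rose by folds of 1.86, 1.87 and 1.32 in these strains. Bsg, which encodes a calprotectin-binding membrane protein found throughout the liver, rose in 6 strains (all but A/J), by folds between 1.14 in PWK/PhJ and 1.32 in DBA/2J.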

How the data were processed

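The authors mapped reads of whole-liver RNA from 93 mice to the C57BL/6J genome with STAR (2.7.1a and GRCm38 per the submitters' processing notes) and deposited raw counts of reads per gene and mouse, without normalization. The annotation release and the strand setting of the counting are not given in the sources used here. All columns were mapped to labelled mice, and replicate numbers follow accession order. Symbols, lengths and overlaps came from GENCODE vM21 and promoters from RefSeq (GRCm38.p6). Nothing states that mice of a group came from separate litters.

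The summary lines were removed, counts were scaled by TMM (edgeR 4.0.16), genes were kept by filterByExpr with a minimum count of 10, and limma-voom (limma 3.58.1, R 4.3.3) fitted the 14 group means over 19110 genes. P-values of each contrast were adjusted by Benjamini-Hochberg over all genes, with 0.05 as the threshold. Log2 CPM used a prior count of 2. Alternatives were edgeR's quasi-likelihood test, DESeq2 1.42.0, other scalings, filters and covariates, separate fits and leaving out each mouse. The scripts were tested on simulated data. The 10 genes and the marker lists were chosen with earlier results of these data known. The 10 were all named, genes of the related lists only if called in at least 3 strains, and per-mouse values were given for the genes called in most strains or changed most. P-values and intervals of the limma-voom fit rest on the spread between mice, with 1 variance per gene pooled over the 14 groups. That spread holds the counting error of rarely read genes. The values for 1 strain therefore do not measure the spread of its own mice alone.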

Additional observations from a re-analysis of the deposited data

Results flagged for a closer look

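The WD effect differed between strains for 8 of the 9 genes tested, by the test of equal effects in 7 strains (limma-voom): adjusted p = 1.20e-06 for Anxa5, 3.01e-05 for Anxa2, 0.000722 for S100a6, 0.00114 for Anxa3, 0.00316 for Anxa1, 0.0106 for S100a11, 0.0192 for S100a10 and 0.0283 for S100a9.

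In 11 of the 126 combinations of gene and group (8.73%) the highest or lowest mouse stood apart on the log2 scale, its gap to the next mouse being a larger share of the group's range than Dixon's critical value. Chance alone picks out about 5%. C57BL/6J on CD replicate 2 was high in Anxa1 (19.4 CPM) and S100a6 (5.28 CPM). A/J on WD replicate 3 was high in S100a8 (5.64 CPM) and S100a9 (8.92 CPM). CAST/EiJ on WD replicate 3 was high in Anxa1 (6.66 CPM) and S100a6 (4.84 CPM), and its summed mesothelial markers (26.4 CPM against at most 8.74) and stellate cell and fibroblast markers (542.2 CPM against at most 360.2) were also above those of the other mice of the group. The other mice were 129S1/SvImJ on CD replicate 6 with 3.70 CPM of Anxa1, 129S1/SvImJ on CD replicate 2 with 28.4 CPM of Anxa5, CAST/EiJ on CD replicate 4 with 4.76 CPM of S100a9, WSB/EiJ on CD replicate 6 with 64.2 CPM of S100a10, and, at the low end, CAST/EiJ on CD replicate 5 with 23.5 CPM of S100a10. The part of other cell types in these values was not tested.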

How the results depend on the processing

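Of 276 values of the 31 called effects under the alternatives, 260 stayed past the threshold and 16 did not, and 0 reversed. Of 422 values with 1 mouse left out, 402 stayed, 20 did not and 0 reversed. Of the 32 effects that were not called, 16 of 277 values became called under the alternatives. The number of genes that rose in C57BL/6J was 4 with edgeR, with DESeq2 and in separate fits, 5 with cohort as a term and 9 with sample quality weights, and with 1 mouse left out it ran from 6 to 9, the 9 without CD replicate 2. In A/J it was 3 with edgeR, 4 with DESeq2, 0 with genes of any count, 2 with at least 10 counts in every mouse, 2 with sample quality weights and 3 in separate fits. With genes of any count it was also 0 in WSB/EiJ and 0 in CAST/EiJ, where more genes were tested. With 1 mouse left out it ran from 1 to 2 in A/J, from 1 to 2 in WSB/EiJ and from 0 to 1 in CAST/EiJ. The A/J count was 2 without CD replicate 1 or WD replicate 3, in each case by adding S100a10.

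With 1 mouse left out, the log2 ratio of Anxa2 to S100a10 ran from 0.46 to 0.95 in C57BL/6J, from -0.62 to -0.44 in WSB/EiJ and from -0.43 to -0.23 in CAST/EiJ. Reversals were of effects that did not pass, and the cause was not tested: S100a9 in DBA/2J was 0.0846 with edgeR and 0.0896 with DESeq2, and sample quality weights gave -0.0161 for S100a8 in DBA/2J and -0.0024 for S100a6 in WSB/EiJ. With 1 mouse left out, DBA/2J ran from -0.0315 to 0.10 for S100a6, -0.21 to 0.25 for S100a8, -0.26 to 0.14 for S100a9 and -0.0159 to 0.0984 for Anxa1. WSB/EiJ ran from -0.13 to 0.15 for S100a6, -0.0114 to 0.98 for S100a9 and -0.12 to 0.0524 for Anxa1. CAST/EiJ ran from -0.0626 to 0.32 for S100a6 and -0.00695 to 0.0773 for Anxa5.

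No paired analysis was possible because replicate numbers follow accession order and only name mice. S100a4 had at most 6 reads per mouse, and the cause was not tested. S100a8 and S100a9 had as few as 2 and 5 reads in a mouse, which limits their precision. Strain and mapping to the C57BL/6J genome cannot be told apart for levels.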
